A study of Homo sapiens with 12 samples.

Results

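ZNF616 is a C2H2 zinc finger gene on the long arm of chromosome 19, and it had the largest fitted rise of any gene called after knockdown (KD) of FAT1 in the oral squamous cell carcinoma (OSCC) lines HN6 and HN30. It was described here with 9 zinc finger genes of the same stretch of 19q13.4: ZNF613, ZNF350, ZNF615, ZNF614, ZNF432, ZNF841, ZNF836, ZNF766 and ZNF480. The 10 genes were taken by symbol from the 19225 rows of the count table, and all 10 passed the filter on low counts. ZNF616 was chosen for its rise in these libraries, so its own difference between KD and NC is given as a description with no test. The 9 neighbours were chosen by position, and the question was whether ZNF616 was high alone or together with them. HN6 and HN30 are human OSCC cell lines, and each was transfected with a scrambled siRNA (NC) or with one of a pair of siRNAs against FAT1, siFAT1-1 and siFAT1-2. The sample titles name the KD groups as short hairpins, whereas the descriptions name siRNAs. RNA was taken 24 h after transfection, with 2 repeats of each of the 6 conditions, the second at another time. All cells went through transfection, the FAT1 arms differ from NC only in the siRNA, and no untransfected cells were analysed here. Each line is 1 culture model of 1 tumour, so the repeats measure the spread of these transfections and not of patients.

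C2H2 zinc finger proteins bind DNA through tandem fingers, and most of those encoded in the clusters of chromosome 19 carry a KRAB domain. KRAB zinc fingers recruit the corepressor TRIM28 and the histone methyltransferase SETDB1, which place repressive H3K9 methylation, often on transposable elements and on the zinc finger genes themselves. The clusters arose by tandem duplication, so that neighbouring genes are related in their coding exons and at times in their promoters. Among the neighbours, ZNF350, also known as ZBRK1, is a KRAB repressor that binds BRCA1. The target genes of ZNF616 and of most of the others are little known.

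In GENCODE on GRCh38 the 10 genes span chr19:51927147-52325922. ZNF616 (ENSG00000204611) lies at chr19:52113091-52139938 on the minus strand, and its canonical transcript has 4 exons. From the lower to the higher coordinate the order is ZNF613, ZNF350, ZNF615, ZNF614, ZNF432, ZNF841, ZNF616, ZNF836, ZNF766 and ZNF480. ZNF836 is the closest to ZNF616, 13.9 kb away, and ZNF841 lies 17.33 kb away on the other side. The annotated span of ZNF432 (chr19:52031378-52095738) overlaps that of ZNF841 (chr19:52064465-52095765). By this span ZNF432 is almost as near to ZNF616, at 17.35 kb. ZNF766 lies 129.6 kb away, beyond PPP2R1A, which encodes a scaffold subunit of the phosphatase PP2A. ZNF613, ZNF766 and ZNF480 are on the plus strand, and the other 7 genes are on the minus strand. None of the 4257 windows of 100 nt in the canonical ZNF616 transcript occurs in a transcript of another gene, nor does any of the 6183 windows of ZNF766. For ZNF836, 11.5% of the windows also occur in a long noncoding RNA of the same strand (ENSG00000267827), and for ZNF841, 1.72% occur in ZNF432. The counts of ZNF836, ZNF841 and ZNF432 are therefore less certain than those of ZNF616 and ZNF766. The exons of ZNF432 also overlap those of an antisense noncoding RNA over 813 nt, and the use of strand in the counting is not given in the sources used here.

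The promoters of ZNF616 and of the genes closest to it, together with that of ZNF766, are printed because they bear on how far the neighbours share sequence at their start sites. The 4 sequences run from 250 bases before to 30 bases after the annotated start, 5′ to 3′ on the strand of the gene, and come from RefSeq on GRCh38.p14. Capitals mark CCGGAAG, a core of sites for ETS factors, and GGGCGG, the GC box bound by SP factors, each searched on both strands. On the reverse strand these read CTTCCGG and CCGCCC.
ZNF616, chr19:52139909-52140188, minus strand: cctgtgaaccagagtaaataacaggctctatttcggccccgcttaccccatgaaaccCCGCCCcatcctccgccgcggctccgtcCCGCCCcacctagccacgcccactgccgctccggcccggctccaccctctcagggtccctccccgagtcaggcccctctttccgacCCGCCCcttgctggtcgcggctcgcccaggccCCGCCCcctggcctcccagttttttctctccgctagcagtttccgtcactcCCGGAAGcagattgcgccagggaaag
ZNF841, chr19:52095736-52096015, minus strand: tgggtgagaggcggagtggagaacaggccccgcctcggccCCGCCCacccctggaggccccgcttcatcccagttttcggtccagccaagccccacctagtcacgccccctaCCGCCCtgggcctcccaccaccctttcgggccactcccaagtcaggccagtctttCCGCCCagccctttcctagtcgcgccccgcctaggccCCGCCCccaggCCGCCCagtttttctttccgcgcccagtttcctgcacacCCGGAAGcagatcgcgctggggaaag
ZNF836, chr19:52171592-52171871, minus strand: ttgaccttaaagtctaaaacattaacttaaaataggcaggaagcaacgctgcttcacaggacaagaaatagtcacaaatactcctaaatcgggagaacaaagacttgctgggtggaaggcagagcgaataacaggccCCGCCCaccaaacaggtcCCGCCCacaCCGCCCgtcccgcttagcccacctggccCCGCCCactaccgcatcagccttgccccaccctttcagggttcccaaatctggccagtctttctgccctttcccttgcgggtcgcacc
ZNF766, chr19:52269337-52269616, plus strand: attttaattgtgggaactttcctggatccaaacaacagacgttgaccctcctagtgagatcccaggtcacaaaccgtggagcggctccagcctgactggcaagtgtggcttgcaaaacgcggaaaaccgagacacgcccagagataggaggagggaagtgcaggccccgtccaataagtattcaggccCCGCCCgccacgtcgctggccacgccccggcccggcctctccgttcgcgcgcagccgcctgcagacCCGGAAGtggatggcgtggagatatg
The windows of ZNF616 and ZNF841 aligned almost from end to end, with 75.8% identity over 293 columns of a local alignment of the 300-base windows. That of ZNF836 aligned with ZNF616 over 135 columns at 74.8% identity, and that of ZNF766 over only 41 columns. RefSeq holds 12 windows for 9 of the 10 genes, and each of the other 8 windows aligned with ZNF616 over 20 columns or fewer. CCGGAAG began 4 bases after the start in the printed windows of ZNF616, ZNF841 and ZNF766, and was not in the window of ZNF836. Together with 2 windows of ZNF432, CCGGAAG is held by 5 of the 12 windows, and by 10.3% of the 35116 promoter windows of all genes. The 2 windows of ZNF432 overlap and hold the same site, which is therefore counted in both. The 300-base forms of the 4 printed windows run 50 bases past the start. In these, GGGCGG occurred 4 times in ZNF616, 5 times in ZNF841, 5 times in ZNF836 and 1 time in ZNF766. Of all windows, 44.95% hold it. AAGATGGC, a core of YY1 sites searched in the same way, was in windows of ZNF613, ZNF615, ZNF614 and ZNF432, in none of the 4 printed windows, and in 2.89% of all windows. A match is a run of letters and not a bound site.

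Total counts ran from 26430049 to 47639010 per library, and levels are given as CPM, counts scaled to library size, after adjustment by the trimmed mean of M values. FAT1 was at 56.8 and 66.7 CPM in HN6 NC and at 7.61 to 21.4 CPM in the 4 HN6 KD libraries. In HN30 it was at 13.6 and 14.7 CPM in NC and at 4.86 to 10.8 CPM in KD. Every KD library lay below both NC libraries of its line, with a log2 fold change of -1.59 (SE 0.308, edgeR adjusted p = 0.0404). The epithelial markers KRT5, CDH1 and EPCAM were at 90.6 CPM or more in all libraries, PTPRC was at 0.0252 CPM or less and PECAM1 at 0.307 CPM or less, whereas KRT14 was at 2.42 CPM or less. The fibroblast marker COL1A1 was at 11.1 to 146 CPM. The HN6 NC repeats had the lowest correlation of any pair, with r = 0.942 against 0.958 to 0.990 in the other 5 conditions, over log2 CPM of genes. In HN6 NC repeat 2, 9.95% of all genes tested were more than 3 times below repeat 1, and 3.23% were more than 3 times above it. Every value of KD against NC over both lines uses this library, and the values of the members without it are given in their paragraphs. For FAT1 the log2 fold change without it was -1.40 (edgeR adjusted p = 0.0993).

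ZNF616 was low in NC and higher in every KD library of both lines. In bulk RNA, fewer cells with a transcript and less of it per cell cannot be told apart. In HN6 NC it had 0.547 and 0.423 CPM, from 16 and 15 counts. In HN6 it had 5.21 and 3.15 CPM with siFAT1-1 and 5.26 and 7.07 CPM with siFAT1-2. In HN30 NC it had 0.283 and 1.97 CPM, from 10 and 78 counts. All 4 HN30 KD libraries were higher, with 6.66 and 5.24 CPM for siFAT1-1 and 5.59 and 5.74 CPM for siFAT1-2. The lowest KD library held 99 counts, so counting error was small in KD. The mean CPM in KD was 10.7 times that of NC in HN6 and 5.17 times that of NC in HN30. The fitted log2 fold change of KD against NC over both lines was 2.83 (SE 0.476, 8 KD and 4 NC libraries), the largest among 429 tested ZNF genes. Across conditions the mean CPM was 0.485 ± 0.0875 (SD, n = 2) in HN6 NC, 1.12 ± 1.19 in HN30 NC, 4.18 ± 1.45 in HN6 with siFAT1-1, 5.66 ± 0.0998 in HN30 with siFAT1-2, 5.95 ± 1.00 in HN30 with siFAT1-1 and 6.17 ± 1.28 in HN6 with siFAT1-2. In this order the pair of NC groups overlapped, and so did the last 3 groups with each other, whereas all KD libraries were above all NC libraries. HN30 NC repeat 2 stood above the other 3 NC libraries, and without it the log2 fold change was 3.72. Without HN6 NC repeat 2 it was 2.64, and without HN30 NC repeat 1 it was 2.54, the lowest value when any library was left out.

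**Figure D1:**
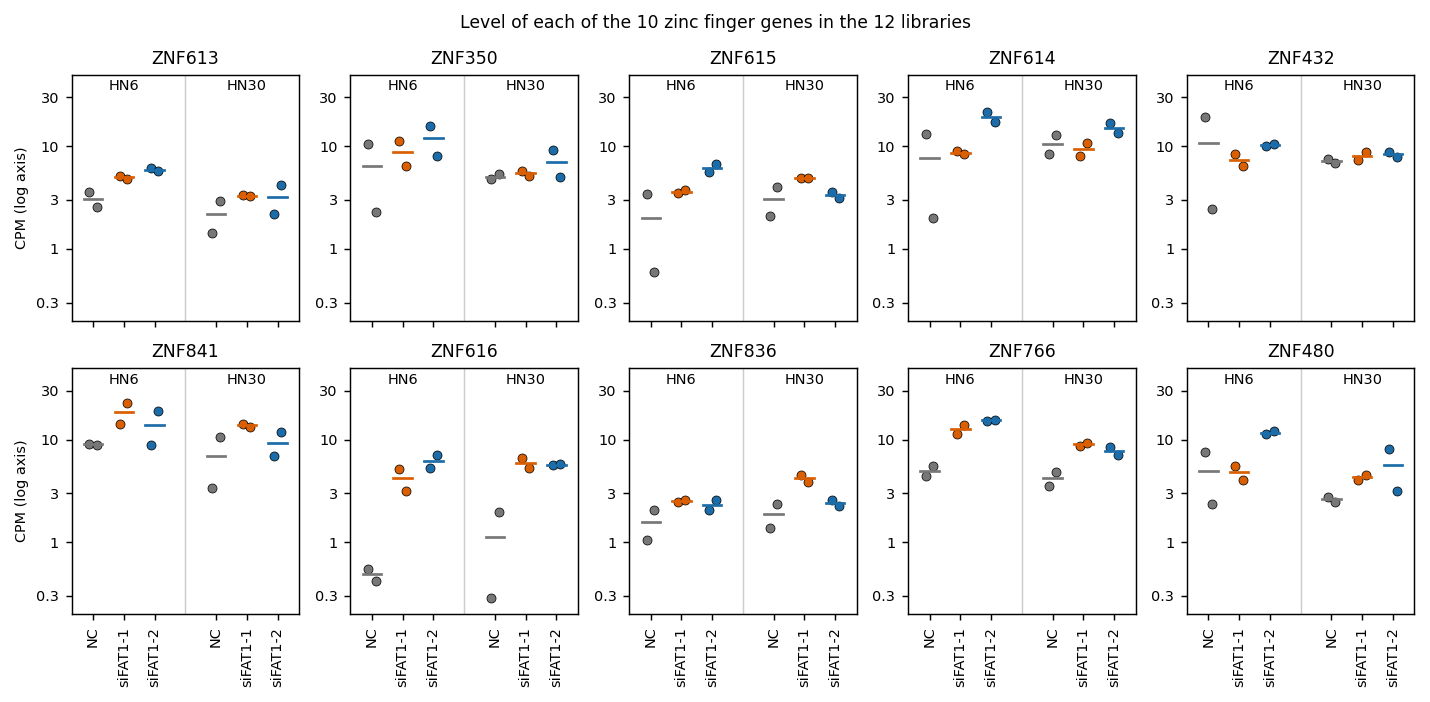
CPM (log axis) of each of the 10 genes in the 12 libraries, in chromosomal order, with NC in grey, siFAT1-1 in orange and siFAT1-2 in blue. Points are the 2 repeats and bars their mean. ZNF616 and ZNF766 are the genes whose KD libraries all lie above both NC libraries in both lines.

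Levels per kb of exon set the genes side by side, with lengths from the union of annotated exons. For ZNF350 that union is 4542 nt and the canonical transcript 2355 nt, so the order of genes can depend on this choice. By this measure ZNF616 had the lowest mean of the 10 genes in NC in both lines. Its mean level was 0.0988 CPM per kb in HN6 NC and 0.229 CPM per kb in HN30 NC. The next lowest gene, ZNF836, had 0.330 CPM per kb in HN6 and 0.395 in HN30. In HN30 the ranges of ZNF616 and ZNF836 overlapped in NC, since ZNF616 reached 0.401 CPM per kb and ZNF836 began at 0.294. In KD libraries ZNF616 reached a mean of 1.05 CPM per kb in HN6 and 1.18 in HN30, which ranked 8 and 5 among the 10. In HN30 KD its range, 1.07 to 1.36 CPM per kb, overlapped those of ZNF432 and ZNF766, so these neighbours in the order do not differ beyond their spread. The highest mean level in NC was that of ZNF841 in HN6, at 2.10 CPM per kb, and that of ZNF614 in HN30, at 1.89 CPM per kb. After KD ZNF616 thus lay within the range of its neighbours. In HN6 NC it lay only just below all of them, since it reached 0.111 CPM per kb and ZNF615 began at 0.122. A low level in NC is part of the rise for which ZNF616 was chosen.

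**Figure D2:**
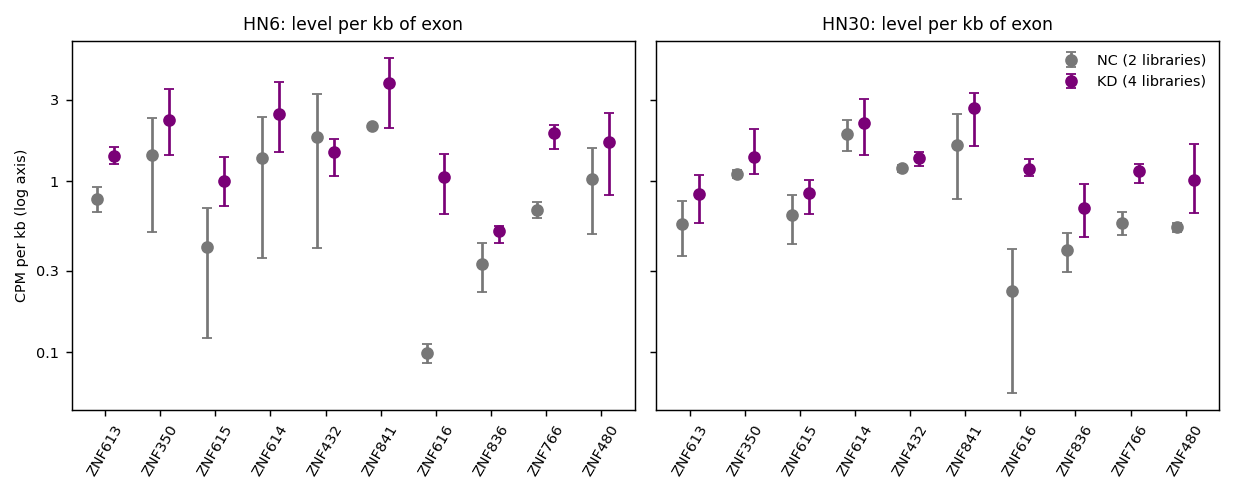
Mean level per kb of exon (CPM per kb, log axis) of each gene in NC (grey, 2 libraries) and KD (purple, 4 libraries), in HN6 and HN30, with bars from the lowest to the highest library. By mean level, ZNF616 is the lowest gene in NC and lies among the others in KD.

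ZNF616 was high with both siRNAs. Against the same 4 NC libraries, the log2 fold change was 2.68 (SE 0.498) with siFAT1-1 and 2.96 (SE 0.505) with siFAT1-2. The difference between the siRNAs, which was not used to choose the gene, was -0.27 on the log2 scale (95% interval -1.27 to 0.72, edgeR adjusted p = 0.708). Differences within that interval were not detectable with these repeats. The log2 difference of FAT1 itself between siFAT1-1 and siFAT1-2 was -0.73 (adjusted p = 0.119). None of the 10 genes passed an adjusted p of 0.05 between the siRNAs by edgeR, limma-voom or DESeq2, against 17.4% of all genes by edgeR. One gene, ZNF614, passed an unadjusted P of 0.05 by edgeR (log2 difference -0.94, edgeR adjusted p = 0.147). By this rule 4700 of all 13887 genes passed, so 1 of 10 is below the background. ZNF614 was at 8.94, 8.38, 7.97 and 10.8 CPM with siFAT1-1 and at 21.5, 17.1, 17.0 and 13.5 CPM with siFAT1-2. These groups did not overlap, and the share of all genes apart between the siRNAs was not counted. ZNF614 passed the adjusted threshold when HN6 NC repeat 2 was left out, as did 3381 of all 14077 genes in that fit.

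Of the 9 neighbours, 8 had a positive log2 fold change of KD against NC, and edgeR called only ZNF766. In HN6, ZNF766 had 4.44 and 5.52 CPM in NC, 11.2 and 13.9 CPM with siFAT1-1 and 15.3 and 15.6 CPM with siFAT1-2. In HN30 it had 3.56 and 4.81 CPM in NC, 8.68 and 9.25 CPM with siFAT1-1 and 8.39 and 7.13 CPM with siFAT1-2. Every KD library was above both NC libraries of its line. The log2 fold change was 1.24 (SE 0.209, edgeR adjusted p = 0.0197), or 2.81 times the mean CPM of NC in HN6 and 2.00 times in HN30. By this rule 0.547% of all 13887 genes tested were called, in either direction. It also passed with each siRNA against the shared NC libraries, with log2 fold changes of 1.21 (SE 0.221, adjusted p = 0.0131) for siFAT1-1 and 1.27 (SE 0.222, adjusted p = 0.00661) for siFAT1-2. For siFAT1-1, 3.25% of all genes were called, and for siFAT1-2 11.8%. The difference of ZNF766 between the siRNAs was -0.06 (95% interval -0.53 to 0.41, adjusted p = 0.870). With the repeat time within each line as a block, the adjusted p of ZNF766 against NC was 0.0489. The call was lost without HN6 NC repeat 1 (adjusted p = 0.101), HN6 NC repeat 2 (0.0545), HN6 siFAT1-1 repeat 2 (0.0539), HN30 NC repeat 1 (0.124) or HN30 siFAT1-1 repeat 2 (0.0534), with log2 fold changes of 1.11 to 1.22 in these fits.

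**Figure D3:**
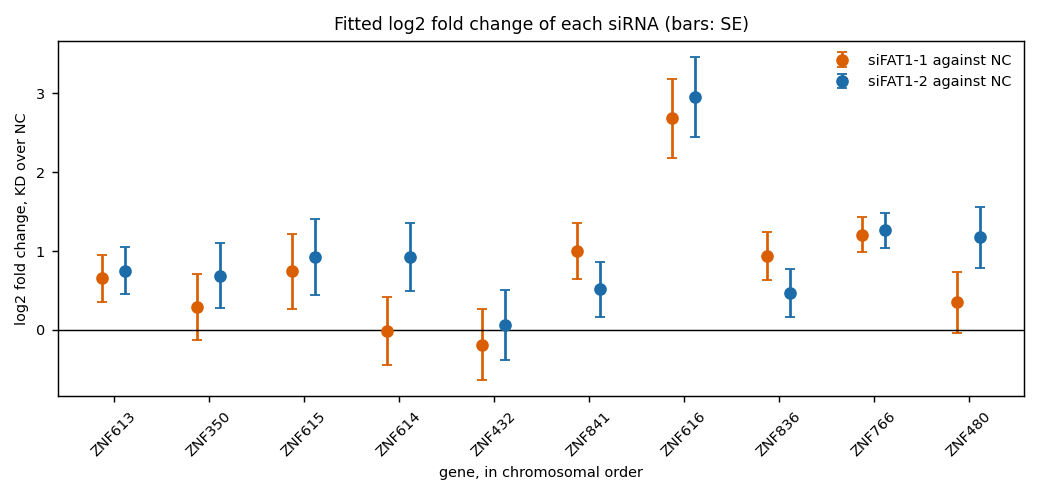
Fitted log2 fold change of siFAT1-1 (orange) and siFAT1-2 (blue) against NC for the 10 genes in chromosomal order, with SE bars; both share the NC libraries. ZNF616 is near 2.68 and 2.96, ZNF766 near 1.21 and 1.27, and ZNF432 near 0.

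The 2 genes next to ZNF616 had positive fold changes that did not pass the adjusted threshold. ZNF836 was at 1.06 and 2.06 CPM in HN6 NC and at 2.05 to 2.58 CPM in HN6 KD. The HN30 values were 1.39 and 2.34 CPM in NC and 2.24 to 4.53 CPM in KD. The groups overlapped narrowly in both lines, and the log2 fold change was 0.72 (SE 0.303, edgeR adjusted p = 0.301). ZNF841, which has the promoter window most like that of ZNF616, was at 9.12 and 8.88 CPM in HN6 NC and at 8.83 to 22.7 CPM in HN6 KD. HN30 NC had 3.37 and 10.6 CPM, and HN30 KD 6.92 to 14.1 CPM in KD. The groups overlapped in both lines, and the log2 fold change was 0.78 (SE 0.334, edgeR adjusted p = 0.311). The values were 0.94 for ZNF836 and 0.75 for ZNF841 without HN6 NC repeat 2. For both genes the value with siFAT1-1, 0.94 for ZNF836 and 1.00 for ZNF841, was above that with siFAT1-2, 0.47 for ZNF836 and 0.52 for ZNF841. The difference between the siRNAs was 0.47 for ZNF836 (adjusted p = 0.299) and 0.48 for ZNF841 (adjusted p = 0.351).

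ZNF613 and ZNF615 lay apart from NC in HN6 and overlapped with it in HN30. Separation in a single line is a description, and its share over all genes was not counted. ZNF613, the member with the lowest coordinate, was at 3.55 and 2.54 CPM in HN6 NC and at 4.84 to 6.09 CPM in HN6 KD. In the HN30 libraries it was at 1.41 and 2.95 CPM in NC and at 2.19 to 4.19 CPM in KD. Its log2 fold change was 0.71 (SE 0.272, edgeR adjusted p = 0.260), and 0.58 without HN6 NC repeat 2. ZNF615 was at 3.42 and 0.592 CPM in HN6 NC and at 3.49 to 6.71 CPM in HN6 KD. HN30 NC libraries had 2.09 and 4.06 CPM, and HN30 KD libraries 3.14 to 4.94 CPM in KD. Its log2 fold change was 0.83 (SE 0.427, adjusted p = 0.388), and 0.45 without HN6 NC repeat 2. ZNF480, the member with the highest coordinate, was apart from NC in HN30 only, at 2.77 and 2.44 CPM in NC and 3.17 to 8.05 CPM in KD. In HN6 it was at 7.58 and 2.37 CPM in NC, 5.57 and 4.05 CPM with siFAT1-1 and 11.3 and 12.1 CPM with siFAT1-2. Its log2 fold change was 0.82 (SE 0.398, adjusted p = 0.365), with 0.35 for siFAT1-1 and 1.17 for siFAT1-2, and the difference between the siRNAs was -0.82 (95% interval -1.67 to 0.02, adjusted p = 0.158).

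ZNF350, ZNF614 and ZNF432 overlapped with NC in both lines. ZNF350, the BRCA1-binding repressor, was at 10.6 and 2.28 CPM in HN6 NC and at 6.43 to 15.8 CPM in HN6 KD. In HN30 it was at 4.75 and 5.32 CPM in NC and at 4.98 to 9.17 CPM in KD, with a log2 fold change of 0.50 (SE 0.377, adjusted p = 0.565). ZNF614 was at 13.3 and 2.00 CPM in HN6 NC and at 8.49 and 12.8 CPM in HN30 NC, with a log2 fold change of 0.53 (SE 0.441, adjusted p = 0.607). ZNF432 was the member whose fitted value over both lines was not positive. In HN6 it was at 19.3 and 2.42 CPM in NC and at 6.40 to 10.5 CPM in KD. In HN30 it was at 7.47 and 6.80 CPM in NC and at 7.37 to 8.82 CPM in KD. Its log2 fold change was -0.05 (95% interval -0.89 to 0.78, adjusted p = 0.967), with 0.20 within HN30 and -0.27 within HN6. In HN6 NC, repeat 1 held the highest level of ZNF432 among all 12 libraries and repeat 2 the lowest. HN6 NC repeat 2 was also the lowest of the 12 libraries for ZNF350, ZNF615, ZNF614 and ZNF480, and was 3.20 to 7.95 times below repeat 1 for these 5 genes. Without it, the log2 fold changes were 0.17 for ZNF350, 0.15 for ZNF614, 0.58 for ZNF480 and -0.38 for ZNF432. For ZNF616, ZNF841 and ZNF836, the ratio of repeat 1 to repeat 2 was 1.29, 1.03 and 0.515.

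Counted over the 9 neighbours, 8 had a positive log2 fold change of KD against NC, with a median of 0.72, and 1 was called. At an unadjusted P under 0.05, 4 were higher (ZNF766, ZNF613, ZNF836 and ZNF841) and 0 lower, against 6.77% of all genes that were higher by this rule. The study's thresholds were a log2 fold change beyond 1 in size at P under 0.05. Applied to the edgeR fit, they passed 1 neighbour, ZNF766, against 2.03% of all genes called higher. With limma-voom, the method the study used, 2 neighbours passed them as higher, against 319 of all 13887 genes. By limma-voom 5 neighbours were higher at an unadjusted P under 0.05, against 1025 of all 13887 genes. All KD libraries were above both NC libraries of their line for 1 of the 9 neighbours, against 2.29% of all genes. Without HN6 NC repeat 2 the median was 0.58, with 8 of 9 positive and 0 called by edgeR. The number higher at an unadjusted P under 0.05 was 2 without that library or without either HN30 siFAT1-1 repeat, and 1 without HN30 NC repeat 1. With the replicate block the median was 0.76, with 9 of 9 positive and 1 called. ZNF616, at 2.83, lay above each of the 9, and the one neighbour called, ZNF766, was not adjacent to it.

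**Figure D4:**
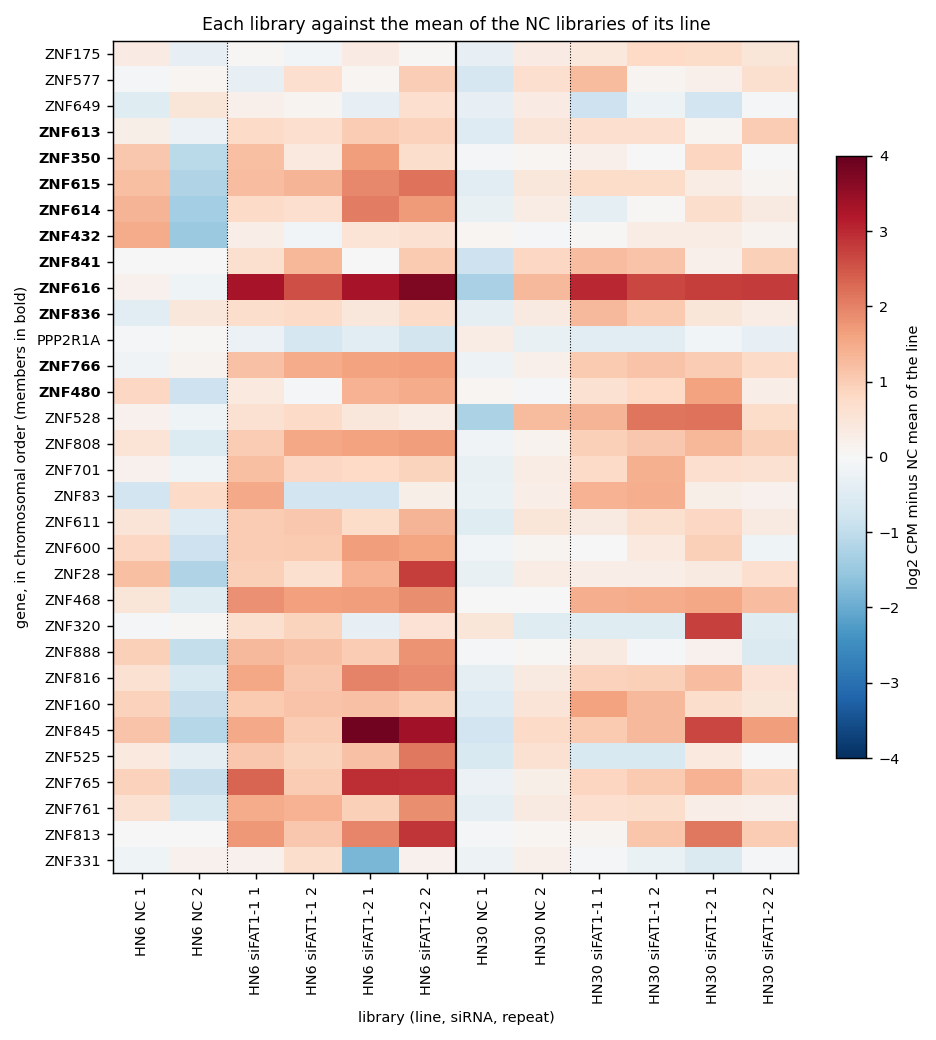
log2 CPM of each library minus the mean of the 2 NC libraries of its line, for the 10 genes (bold) and the tested genes around them, in chromosomal order. ZNF616 is the darkest row among the members in all 8 KD libraries, PPP2R1A between ZNF836 and ZNF766 is at or below NC in KD, and HN6 NC repeat 2 is pale blue from ZNF350 to ZNF432.

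The genes around the members were taken from a list of 34 genes of 19q13.4, of which 22 were tested. PPP2R1A, which begins just inside the annotated span of ZNF836 and before ZNF766, had a log2 fold change of -0.43 (SE 0.147, edgeR adjusted p = 0.213). It was at 479 and 505 CPM in HN6 NC and at 295 to 419 CPM in HN6 KD, which did not overlap. In HN30 it was at 390 and 264 CPM in NC and at 234 to 299.9 CPM in KD, which overlapped. Its log2 fold change was -0.41 without HN6 NC repeat 2. The share of all genes apart from NC in a single line was not counted. ZNF649, the nearest tested gene on the side of ZNF613, had a log2 fold change of -0.18 (adjusted p = 0.813). ZNF528, the nearest on the side of ZNF480, had 0.87 (adjusted p = 0.427), and it was at 0.577 CPM or less in HN30. ZNF468, a zinc finger gene further along, was the one gene of this list called for KD over both siRNAs, with a log2 fold change of 1.56 (SE 0.210, adjusted p = 0.00749). It was at 9.43 and 4.74 CPM in HN6 NC and at 20.8 to 24.5 CPM in HN6 KD. In HN30 it was at 5.01 and 4.96 CPM in NC and at 11.9 to 14.8 CPM in KD, so the groups did not overlap in either line. When HN6 NC repeat 2 was left out, its log2 fold change was 1.37 (adjusted p = 0.0161). With siFAT1-1, 2 genes of the list were called, ZNF468 and ZNF701, against 3.25% of all genes. With siFAT1-2, 6 were called, against 11.8% of all genes: ZNF468, ZNF845, ZNF808, ZNF765, ZNF816 and ZNF813. Their log2 fold changes ran from 1.37 (ZNF808) to 2.72 (ZNF845). These comparisons share the NC libraries, and the genes other than ZNF468 were named after their values were seen. Of the 22 genes, 19 had a positive value, with a median of 0.87. At an unadjusted P under 0.05, 10 were higher and 1, PPP2R1A, lower, against 6.77% of all genes that were higher by this rule. For 6 of them every KD library was above both NC libraries of its line (ZNF808, ZNF701, ZNF468, ZNF816, ZNF765 and ZNF813), against 2.29% of all genes. Without HN6 NC repeat 2 the median of the list was 0.62, with 19 positive.

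Positive values were also frequent among the ZNF genes of chromosome 19 taken as a whole. This set includes ZNF616, its 9 neighbours and the tested zinc fingers of the 19q13.4 list. Of the 204 tested ZNF genes of chromosome 19, 160 (78.4%) had a positive log2 fold change, with a median of 0.44, and 7 were called higher and 0 lower. Those 7 were ZNF616, ZNF766 and ZNF468 of 19q13.4 and, from elsewhere on the chromosome, ZNF791, ZNF426, ZNF429 and ZNF227, named after their values were seen. Without 1 NC library the number called fell to 1 (HN6 NC repeat 1), 3 (HN6 NC repeat 2), 1 (HN30 NC repeat 1) or 6 (HN30 NC repeat 2). Of the 221 tested ZNF genes of other chromosomes, 65.2% were positive, with a median of 0.26, and 1 was called. Of 770 tested genes of chromosome 19 whose symbols do not begin with Z, 37.1% were positive, with a median of -0.11. This share varied, at 27.5% within HN6, 50.2% within HN30, 47.1% with siFAT1-1 and 29.6% with siFAT1-2. For ZNF genes of other chromosomes it was 67.1% within HN6, 64.3% within HN30, 56.1% with siFAT1-1 and 68.3% with siFAT1-2. Over all 13887 genes, 52.0% were positive, the median was 0.02, and 41 were called higher and 35 lower. The share of positive ZNF genes of chromosome 19 was 79.3% within HN6 and 76.9% within HN30, and 75.5% with siFAT1-1 and 77.9% with siFAT1-2, comparisons that share NC libraries. Without each NC library in turn it ran from 74.5% to 81.9%, alternatives chosen after the data were seen. All KD libraries lay above NC in both lines for 22 of the 204, and below it for 0, against 2.29% and 3.15% of all genes. The median of the 9 neighbours, 0.72, was above that of all ZNF genes of the chromosome, a set that contains them. This is a description with no test.

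**Figure D5:**
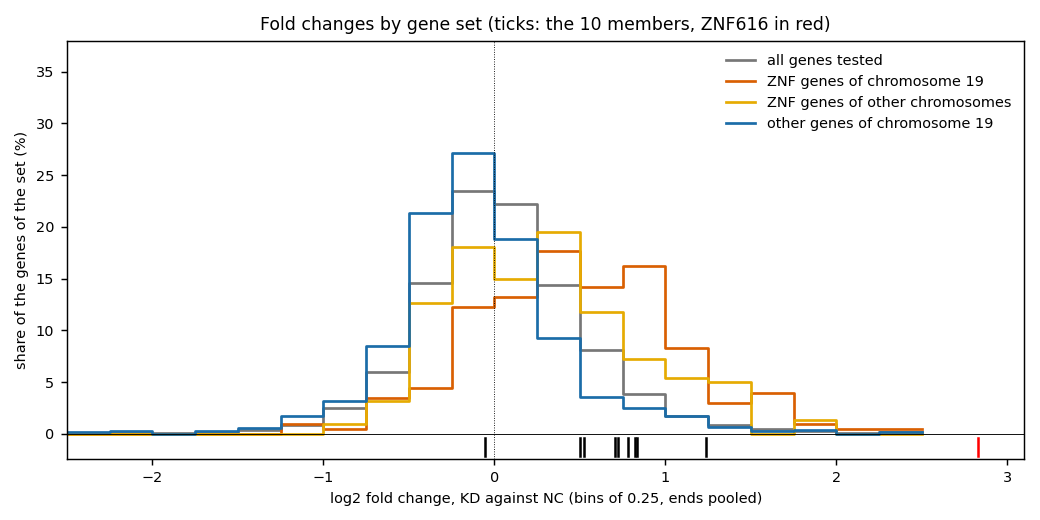
Share of genes (%) by log2 fold change of KD against NC, in bins of 0.25, for all tested genes (grey), ZNF genes of chromosome 19 (orange), ZNF genes of other chromosomes (yellow) and other genes of chromosome 19 (blue). Ticks below the axis are the 10 members, with ZNF616 (red, 2.83) beyond all the others.

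The corepressors through which KRAB zinc fingers act were measured alongside. Of the 20 listed genes, all were tested and 0 passed an adjusted p of 0.05 by edgeR for KD against NC over both siRNAs. At an unadjusted P under 0.05 there were 3, against 14.5% of all genes in either direction. Among these were HDAC1, with a log2 fold change of 0.51, and DNMT1, with -0.69, both named after their values were seen. DESeq2 called 1 of the 20 for KD, HDAC1, against 4.61% of all genes. By edgeR 0 of the 20 passed for siFAT1-1, against 3.25% of all genes. At an unadjusted P under 0.05 there were 6, against 2643 of all 13887 genes. DESeq2 called 4 for siFAT1-1, against 8.76% of all genes. For siFAT1-2 by edgeR, HDAC1 (0.50, adjusted p = 0.0494) and HDAC2 (0.57, adjusted p = 0.0362) passed. These are 2 of the 20, against 11.8% of all genes. Between siFAT1-1 and siFAT1-2, CBX1 (-0.82, adjusted p = 0.00380) and HDAC2 (-0.79, adjusted p = 0.00651) passed. These are 2 of the 20, against 17.4% of all genes. The genes named for siFAT1-2 and between the siRNAs were also named after their values were seen. TRIM28 was at 611 and 986 CPM in HN6 NC and at 467 to 618 CPM in HN6 KD, and in HN30 at 467 and 409 CPM in NC, 247 and 279 CPM with siFAT1-1 and 454 and 467 CPM with siFAT1-2. Its log2 fold change was -0.41 (95% interval -0.85 to 0.02, adjusted p = 0.368). SETDB1 had a log2 fold change of 0.11 (95% interval -0.38 to 0.59, adjusted p = 0.855). For TRIM28 the values were -0.62 with siFAT1-1 (adjusted p = 0.126) and -0.22 with siFAT1-2 (adjusted p = 0.499), and the difference between the siRNAs was -0.40 (95% interval -0.85 to 0.05, adjusted p = 0.195). With HN6 NC repeat 2 left out, TRIM28 had a log2 fold change of -0.24 and SETDB1 of 0.24.

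Between the lines, ZNF766 and ZNF613 were higher in HN6. The log2 difference of HN6 against HN30 was 0.58 for ZNF766 (SE 0.179, adjusted p = 0.0157) and 0.65 for ZNF613 (SE 0.244, adjusted p = 0.0367). By this rule 56.9% of all genes differed between the lines and 28.8% were higher in HN6, so that 2 of 10 is below the background. ZNF616 differed by -0.49 (95% interval -1.33 to 0.35, adjusted p = 0.30). Without HN6 NC repeat 2, ZNF350 and ZNF480 were called as well, and ZNF613 kept its call in 3 of the 12 fits that each left out a library. Whether KD acted differently in the lines was tested by the interaction. It was 1.05 for ZNF616, larger in HN6 (95% interval -0.75 to 2.86, adjusted p = 1.00), and it became -0.93 without HN30 NC repeat 2. For ZNF766 it was 0.49 (95% interval -0.36 to 1.34, adjusted p = 1.00). By edgeR 0 of the 10 passed, and 0 at an unadjusted P under 0.05, against 298 of all 13887 genes. DESeq2 also called 0. Among all genes 0% were called for the interaction, 0% for KD within HN6 and 0% for KD within HN30, so these fits could not single out any gene. Within HN6, ZNF766 had a log2 fold change of 1.52 (SE 0.335, edgeR adjusted p = 0.814) and ZNF613 of 0.87 (SE 0.358, edgeR adjusted p = 0.814), the 2 neighbours past an unadjusted P of 0.05 there. Within HN30, ZNF766 had 0.99 (SE 0.311, edgeR adjusted p = 0.442), the 1 neighbour past an unadjusted P of 0.05 in that line. DESeq2 called 1 neighbour within HN6, ZNF766, against 68 of 13626 genes. Within HN30 it called 0, against 201 of 13602 genes.

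The pattern of ZNF616 over the 12 libraries was compared with that of every other tested gene by Pearson correlation of log2 CPM, centred within each line. These values are a description over 12 libraries that share the division into KD and NC. The closest of 13886 genes was ZNF791 on chromosome 19 (r = 0.974), which lies on the short arm. It was followed by GTF2H1 of chromosome 11 (r = 0.948), which encodes a subunit of the transcription factor TFIIH, and by ZKSCAN1, a zinc finger gene of chromosome 7 (r = 0.948). MTMR2 of chromosome 11, which encodes a phosphoinositide phosphatase (r = 0.942), and ZNF17 of chromosome 19 (r = 0.939) came next. ZNF791 was at 3.89 and 3.16 CPM in HN6 NC and at 7.56 to 9.84 CPM in HN6 KD. In HN30 it was at 4.07 and 8.64 CPM in NC, with repeat 2 the higher as for ZNF616, and at 12.6 to 14.7 CPM in KD. Among the neighbours, ZNF766 ranked 7 (r = 0.932) and ZNF613 ranked 61 (r = 0.873). The genes closest to ZNF616 ranked 408 (ZNF836, r = 0.744) and 511 (ZNF841, r = 0.718). ZNF432, whose annotated span overlaps that of ZNF841, ranked 4554 (r = 0.243). None of the 5 genes most like ZNF616 was one of its 9 neighbours. With 9 neighbours among 13886 genes this is the usual outcome, so it says little about them.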

How the data were processed

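Poly(A) RNA of 12 libraries was sequenced, 2 for each of 6 conditions. The authors filtered reads with their own scripts (poly-N, duplicates and low quality), aligned what was left to hg38, and deposited raw gene counts without normalization. The submitters' processing notes name HISAT2 and featureCounts. Their versions, the annotation and the strand setting are not given in the sources used here. Columns of per-sample values left out numbered 0.

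The members and lists were chosen with earlier results of these data known, and the lists of genes of 19q13.4 and of corepressors were written by hand. Named genes were the 10 members, FAT1, the nearest tested gene on each side, PPP2R1A, any gene of the 19q13.4 list with an adjusted p under 0.05, TRIM28, SETDB1 with any corepressor past the study's thresholds, and the 5 genes most correlated with ZNF616. ZNF genes were taken by symbols of ZNF and a digit. The values of 1 listed corepressor are not reported here.

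Differences were tested with edgeR 4.0.16 (TMM, filterByExpr with a minimum count of 10 in groups of KD and NC, quasi-likelihood test, 13887 genes) over all 12 libraries with cell line as a term, adjusted by Benjamini-Hochberg over all genes. Within each line, 13626 genes were tested in HN6 and 13602 in HN30. SE is the log2 fold change divided by the root of F, and 95% intervals use the moderated degrees of freedom. log2 CPM used a prior count of 2. Levels per kb used the union of GENCODE 44 exons. The tests were checked on simulated data. Alternatives were DESeq2 1.42.0 size factors and Wald test, limma 3.58.1 voom, which the study used, no filter, a replicate block, no cell line term and each library left out, in R 4.3.3. Sequences and figures used Python 3.11.15, Biopython 1.88 and matplotlib 3.10.9.

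Depth was 26430049 to 47639010 counts, and the common dispersion of 0.139 set the precision. Per the labels, the repeat number marks a separate time within a line, so numbers pair the samples. Deviations from the group means of same-numbered libraries correlated over genes with r = 0.0778 to 0.242 in HN6 and -0.0337 to 0.405 in HN30. Nothing says that the repeats came from separate stocks of cells.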

Additional observations from a re-analysis of the deposited data

How the results depend on the processing

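ZNF616 stayed between 2.54 and 3.72 (log2 fold change of KD against NC) when each library was left out. ZNF766 stayed between 1.11 and 1.39 and kept its call in 7 of 12 such fits. Without the cell line term its log2 fold change was 1.28 (adjusted p = 0.223), and 0 neighbours were called for KD, for siFAT1-1 and for siFAT1-2. The DESeq2 Wald test called 3 neighbours for siFAT1-1 (ZNF766, ZNF836 and ZNF841), against 8.76% of all genes. It called 3 for siFAT1-2 (ZNF480, ZNF613 and ZNF766), against 2694 of all 13887 genes. For KD within HN6 it called 1, against 68 of 13626 genes. With each library left out, the number of neighbours called ran from 0 to 1 for KD, from 0 to 1 for siFAT1-1 and from 1 to 2 for siFAT1-2 (ZNF480 joined without HN6 NC repeat 1 or HN30 siFAT1-2 repeat 2). For siFAT1-1, ZNF766 was lost without HN30 NC repeat 1 or either HN30 siFAT1-1 repeat. The number of members called ran from 0 to 1 between the siRNAs and from 1 to 4 between the lines. ZNF432 turned positive with limma-voom (0.30) and with the replicate block (0.16), and ran from -0.38 to 0.70 over the libraries left out. The interaction of ZNF616 ran from -0.93 to 1.85. The cause of these shifts was not tested.

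The replicate block changed no call among the members: ZNF766 stayed past the threshold at an adjusted p of 0.0489, and the log2 fold change of ZNF616 was 3.01. Of all genes, 76 were called for KD, against 44 with the block, 640 by the DESeq2 Wald test, 4 without the cell line term, and 12 (without HN30 NC repeat 1) to 61 with each library left out. With 2 repeats per condition, changes of the size seen for most neighbours (log2 0.50 to 0.83, SE 0.272 to 0.441) could not be told from 0 after adjustment over all genes.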
